A study of Mus musculus with 2 samples.

Results

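The genes described here are those of oxidative phosphorylation (OXPHOS), taken as every gene in the deposited tables whose symbol begins with Ndufa, Ndufb, Ndufc, Ndufs, Ndufv, Sdha, Sdhb, Sdhc, Sdhd, Uqcr, Cox4, Cox5, Cox6, Cox7, Cox8, Atp5, mt-Nd, mt-Co, mt-Cyt or mt-Atp. This rule found 111 of 32285 genes, of which 98 are encoded in the nucleus and 13 on the mitochondrial chromosome. It also takes in assembly factors whose names begin with Ndufaf or Sdhaf, which help to build a complex but are not subunits of it. By role, the nuclear genes comprised 7 core subunits, 30 accessory subunits and 8 assembly factors of complex I, 4 subunits and 4 assembly factors of complex II, 8 subunits of complex III, 20 of complex IV and 17 of complex V. Both samples were dissociated cells of wild-type (WT) mouse embryos at embryonic day (E) 14.5 of a line labelled EoMltt3. The tissue is labelled brain hemispheres, and was described in the methods as dorsal telencephalon. The background strain was C57BL/6 J. Neither carried a deletion or a treatment, so that every comparison was made between cell classes of the same libraries. The libraries are called replicates 1 and 3 after their labels. Whether they came from separate embryos, or from pools, is not given in the sources used here, and p-values then measure only the spread between these samples.

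OXPHOS is carried out in the inner mitochondrial membrane. Complex I (NADH dehydrogenase) and complex II (succinate dehydrogenase) pass electrons to ubiquinone, complex III hands them to cytochrome c, complex IV (cytochrome c oxidase) transfers them to oxygen, and complex V (ATP synthase) uses the resulting proton gradient to make ATP. Most subunits are encoded in the nucleus and imported, while the mitochondrial chromosome encodes a small set of core subunits of complexes I, III, IV and V, and none of complex II. Neural progenitors are known for a strong reliance on glycolysis, and neuronal differentiation for a shift towards OXPHOS. The transcription factors NRF1, GABP (of the ETS family) and YY1 are textbook regulators of nuclear OXPHOS genes.

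Promoter sequences of the nuclear genes were searched for the core letters of these 3 factors, since most of these genes were lower in one cell class, as described further on. The sequences are from RefSeq on GRCm38.p6 and reach from 250 bases before to 50 bases after the start of the gene, and 79 of the 98 nuclear genes had one. The letters CGCATGCG, the NRF1 core, which read the same on both strands, were found in 11 of the 79 (13.9%), against 4.14% of the 11284 promoters of genes tested between classes and 2.07% of all 27025 promoters. The YY1 letters AAGATGGC or their reverse complement GCCATCTT were found in 10 (12.7%), against 4.93% and 3.19%. The ETS letters CCGGAAGT or ACTTCCGG were found in 5 (6.33%), against 8.61% and 4.31%. The words were searched separately, so that 1 promoter can count for more than 1 of them, and a match is a description of the window and not a binding site. The holders of each word on the gene's own strand with the greatest drop in medial ganglionic eminence (MGE) interneuron-like cells are printed 5′ to 3′ on that strand, with the word in capitals. They are Cox6a1 (complex IV, minus strand, chr5:115349076-115349155, word at position -161 from the start) and Atp5l (complex V, minus strand, chr9:44920913-44920992, at -241) for NRF1, Uqcr11 (complex III, minus strand, chr10:80406844-80406923, at -66) for ETS, and Ndufc1 (complex I, minus strand, chr3:51408915-51408944, at 22) and Ndufaf8 (complex I assembly, plus strand, chr11:120098933-120098962, at 10) for YY1.
Cox6a1: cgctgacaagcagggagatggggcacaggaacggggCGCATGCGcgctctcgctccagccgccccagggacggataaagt
Atp5l: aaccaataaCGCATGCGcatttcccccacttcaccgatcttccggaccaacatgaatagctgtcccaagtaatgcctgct
Uqcr11: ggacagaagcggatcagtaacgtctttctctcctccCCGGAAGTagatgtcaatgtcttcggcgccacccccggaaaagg
Ndufc1: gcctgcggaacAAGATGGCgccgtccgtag
Ndufaf8: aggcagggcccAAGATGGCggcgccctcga

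Replicate 1 held 6163 cell barcodes and 64182006 unique molecular identifiers (UMIs), each of which marks 1 captured RNA molecule, and replicate 3 held 8870 barcodes and 93295807 UMIs. The median UMI count per barcode was 9802 and 9754. After filtering, 5215 and 7035 cells were kept, in 26 clusters that were found without the OXPHOS genes. Class names come from fixed markers and carry the ending "-like". The markers were highest in their own class for 8 of 12 in radial glial cell (RGC)-like, 10 of 10 in intermediate progenitor cell (IPC)-like, 9 of 12 in projection neuron (PN)-like and 8 of 10 in MGE interneuron-like cells, and for 8 of 8 in Cajal-Retzius-like, endothelial-like, pericyte-like and meningeal-like cells. The libraries shared 16 barcodes among the kept cells. Clusters that met no name held 456 and 204 cells.

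Nuclear OXPHOS genes took a similar part of the RNA in both libraries, 1.91% of all UMIs in replicate 1 and 1.90% in replicate 3. Mitochondrially encoded OXPHOS genes took 3.1% and 3.47%. In RGC-like cells (689 and 1560 cells), the neural stem cells of the cortex, the nuclear genes held 2.16% and 2.05% of the UMIs and the mitochondrial genes 2.61% and 3.15%. IPC-like cells (537 and 991), the neurogenic daughters of RGCs, lay close to them, with nuclear shares of 2.16% and 1.99% and mitochondrial shares of 2.63% and 3.15%. PN-like cells (2878 and 3432) had lower nuclear shares of 1.82% and 1.78%, and higher mitochondrial shares of 3.11% and 3.56%. MGE interneuron-like cells (339 and 224) had the lowest nuclear shares of the 4 neural classes, 1.15% and 1.06%, and the highest mitochondrial shares, 4.44% and 5.02%. In both replicates the nuclear shares of RGC-like and IPC-like cells lay above those of PN-like cells, which lay above those of MGE interneuron-like cells, while the 2 progenitor classes overlapped. The mitochondrial shares ran the other way within each library. The libraries also differed, so that the 3.15% of the progenitor classes in replicate 3 exceeded the 3.11% of PN-like cells in replicate 1. Clusters within a class differed as well. Among PN-like clusters the nuclear share was 2.08% and 1.91% in that led by Slit3, but 1.62% and 1.65% in that led by Hs3st4. The RGC-like cluster led by Hist1h1b was at 2.07% and 1.96%. It thus lay just under the PN-like cluster led by Slit3 in replicate 1, but above that cluster in replicate 3. No test was made on a share, since an exact permutation test of 2 sums against 2 cannot give a two-sided p below 0.333.

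**Figure D1:**
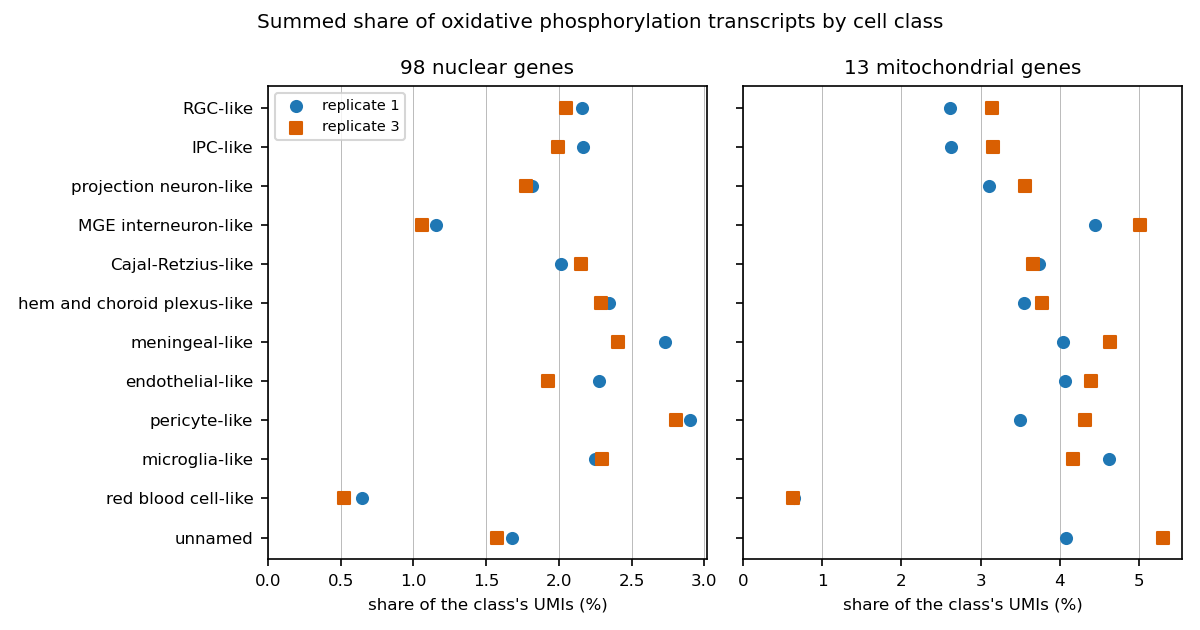
Share of each class's UMIs (percent) in nuclear and in mitochondrially encoded OXPHOS genes, with 1 point per replicate. MGE interneuron-like cells sit lowest of the 4 neural classes for nuclear genes, at 1.15% and 1.06%, and highest for mitochondrial genes, at 4.44% and 5.02%.

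Outside the neural lineage the shares spread further. Pericyte-like cells, the mural cells of small vessels, had the highest nuclear shares of the named classes apart from red blood cell-like cells counted without globin, at 2.90% and 2.81%. Meningeal-like cells followed at 2.73% and 2.40%, and endothelial-like cells lay at 2.27% and 1.93%. Hem and choroid plexus-like cells had 2.34% and 2.29%, microglia-like cells, whose leading genes were those of macrophages, 2.25% and 2.30%, and Cajal-Retzius-like cells 2.01% and 2.15%. The median share per Cajal-Retzius-like cell was 1.07% in replicate 1 and 2.12% in replicate 3, so that the replicates were less alike than their sums. Red blood cell-like cells held only 0.646% and 0.523%, but globin genes took 81.8% and 85.6% of their UMIs, and among the other UMIs the nuclear OXPHOS share was 3.56% and 3.62%. The unnamed cells had nuclear shares of 1.68% and 1.57% and mitochondrial shares of 4.08% and 5.31%, but they came from 3 clusters that lay far apart. The cluster led by Adarb2 and Dlx6os1 (378 and 29 cells) had nuclear shares of 1.55% and 0.936%, that led by Plxna4os3 0.921% and 0.842%, and that led by Hbb-y, a globin gene, 2.99% and 2.91%.

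Across the cells of a class, Spearman's rho between the nuclear and mitochondrial shares was weak, and its sign depended on the class. It was 0.24 and 0.23 in RGC-like cells of replicates 1 and 3, 0.34 and 0.20 in IPC-like, -0.08 and -0.06 in PN-like, and -0.23 and -0.12 in MGE interneuron-like cells. The PN-like value covered clusters of opposite sign, from -0.41 and -0.31 in that led by Tafa1 to 0.48 and 0.37 in that led by Cdh8. With the share of cytosolic ribosomal protein genes, the rho of the nuclear share was 0.85 and 0.81 in PN-like cells and 0.56 to 0.85 over the 4 neural classes. Over the 26 clusters, Pearson's r of the nuclear share was -0.09 with the mitochondrial share and 0.87 with the ribosomal share, and without the globin-rich red blood cell-like cluster it was -0.50 and 0.85. These are descriptions over cells and clusters of the same libraries, whose shares are parts of 1 total.

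MGE interneurons are the inhibitory neurons that enter the cortex from the ventral telencephalon. Of the 93 nuclear genes tested between the 4 neural classes, 79 fell in MGE interneuron-like against PN-like cells and 0 rose (quasi-likelihood F-test of edgeR, Benjamini-Hochberg adjusted, threshold 0.05), where 22.6% of all 15231 genes tested were called lower and 13.6% higher. The median log2 fold change of the 93 was -0.86, against -0.11 for all genes tested. All 4 subunits of complex II and all 8 of complex III were lower, as were 28 of 30 accessory and 6 of 7 core subunits of complex I, 11 of 15 tested genes of complex IV and 15 of 17 of complex V. Of the assembly factors, 4 of 8 for complex I and 3 of 4 for complex II were lower.

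The drop of complex I was led by Ndufs8, an iron-sulphur subunit of the core. Ndufs8 was at 22.2 and 31.0 CPM, that is UMIs of the gene per 1000000 UMIs of the sum, in MGE interneuron-like cells and 58.8 and 73.1 CPM in PN-like cells, which is a log2 change of -1.51 ± 0.18 (SE, n = 2 sums per class, adjusted p = 0.000455, edgeR). The assembly factor Ndufaf3 changed by -1.38 ± 0.16 (adjusted p = 0.000337, edgeR), and the accessory subunits Ndufb4 and Ndufb11 both by -1.20. The groups did not overlap for any of the 4 genes, but these were picked as called genes with the largest fold changes, so that this adds no support. Ndufv1, the flavin-bearing subunit that oxidises NADH, fell by 0.84 on the log2 scale.

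Ndufs1, the largest iron-sulphur subunit of complex I, stood apart from the rest of the core. Ndufs1 (chr1:63143592-63176822 on GRCm38.p6) was at 52.8 and 60.3 CPM in MGE interneuron-like cells and 46.7 and 50.5 CPM in PN-like cells. The log2 difference was 0.04 ± 0.11 (SE, adjusted p = 0.855, edgeR), so that no difference in Ndufs1 was detected between these classes. It was named by a rule on core subunits.

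The subunits named for the other complexes fell by 0.47 to 1.17 on the log2 scale. Of complex II, Sdhb, the iron-sulphur subunit, fell by 1.07, and Sdha, the flavoprotein that oxidises succinate, by 0.47 on the log2 scale (adjusted p = 0.000825 and 0.0108, edgeR). Of complex III, Uqcrfs1, the Rieske iron-sulphur protein, fell by 1.06, Uqcrc2 by 1.04 and Uqcrc1 by 0.89. Cox4i1, a complex IV subunit that takes part in its regulation by ATP, was at 423 and 472 CPM in MGE interneuron-like cells against 760 and 848 CPM in PN-like cells, or a log2 change of -1.01 ± 0.13 (SE, adjusted p = 0.000577, edgeR). Cox6a1 fell by 1.14, Cox5b by 0.86 and Cox5a by 0.55. Of complex V, Atp5o, which belongs to the stalk that holds the catalytic head in place, was at 197 and 203 CPM against 371 and 429 CPM and fell by 1.17 ± 0.13 on the log2 scale (SE, adjusted p = 0.000293, edgeR). Atp5b and Atp5a1, the catalytic beta and the alpha subunit of the head, fell by 0.97 and 0.64. The promoter examples printed above, which were picked for their drop, fell by 1.06 for Atp5l, 0.96 for Uqcr11, 0.90 for Ndufc1 and 0.76 for Ndufaf8. Whether genes with and without the promoter words differed in this drop was not tested.

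These cells were also shallower than PN-like cells, with a median of 4528 and 4056.5 UMIs against 11178.5 and 10805.5. Their ribosomal protein genes took 4.41% and 4.23% of UMIs against 9.13% and 9.19%, and the long noncoding RNAs of the nucleus 2.38% and 2.33% against 1.62% and 1.72%. Within PN-like cells themselves the nuclear OXPHOS share was lower in shallow cells, 0.913% and 0.918% at 1500 to 3000 UMIs, 1.18% and 1.18% at 3000 to 6000 UMIs, and 1.84% and 1.87% at 12000 UMIs or more. At 3000 to 6000 UMIs, MGE interneuron-like cells had nuclear shares of 0.887% and 0.713%, still under the 1.18% of PN-like cells in both replicates. The mitochondrial shares in this range were 5.47% and 6.34% in MGE interneuron-like cells against 6.12% and 5.78%, and the replicates overlapped. In a fit on cells of 3000 to 6000 UMIs alone (168 and 104 MGE interneuron-like cells), 11 of 90 nuclear genes were lower, where 7.86% of all genes tested were. The median log2 fold change was -0.47, against -0.06 for all genes. Of complex I, 1 of 7 core and 5 of 30 accessory subunits were lower in that fit. Complex II had 1 of 4 lower, complex III 0 of 8, complex IV 1 of 12 and complex V 2 of 17. The part of depth and RNA quality in the remaining difference was not tested.

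**Figure D2:**
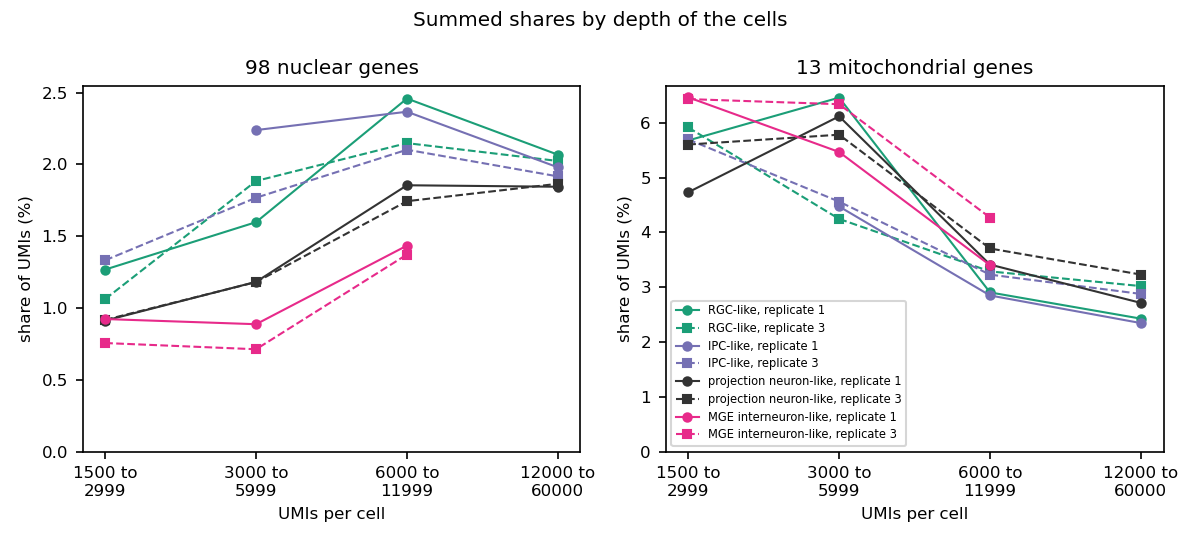
Share of UMIs (percent) in nuclear and mitochondrially encoded OXPHOS genes by range of UMIs per cell, for the 4 neural classes and both replicates, in ranges that held at least 20 cells. In PN-like cells the nuclear share rose from 0.913% and 0.918% in the shallowest range to 1.84% and 1.87% in the deepest, and at 3000 to 6000 UMIs MGE interneuron-like cells lay below them.

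The genes of neighbouring pathways moved in the same comparison. Of the TCA cycle, which feeds electrons to complexes I and II, 11 of 16 genes were lower and 0 higher in MGE interneuron-like cells. Of the carriers, channels and electron shuttles that work beside the complexes, 11 of 12 were lower and 0 higher. Glycolysis had 15 of 19 lower and 0 higher, the mitochondrial ribosome 69 of 78 and 0, and the cytosolic ribosome 81 of 83 and 0. Of the regulators and machinery of mitochondrial biogenesis, 5 of 23 were lower and 1 was higher, close to the 22.6% of all genes called lower. The assembly factors outside the symbol rule had 11 of 33 lower and 2 higher, and the antioxidant genes 7 of 9 lower and 0 higher. At 3000 to 6000 UMIs, where 7.86% of all genes were lower, the TCA cycle had 0 of 16 lower and glycolysis 10 of 15. The carriers, channels and shuttles had 2 of 12, the cytosolic ribosome 17 of 83 and the mitochondrial ribosome 4 of 77. Biogenesis, the outside assembly factors and the antioxidant genes had 0. Medians were -0.31 for the TCA cycle, -1.05 for glycolysis, -0.47 for the mitochondrial ribosome and 0.09 for biogenesis, against -0.06 for all genes.

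None of the 13 mitochondrially encoded genes was called between MGE interneuron-like and PN-like cells (edgeR), and 1 had an unadjusted p under 0.05. The log2 fold changes had a median of 0.29 and ran from -0.05 for mt-Nd5 to 0.56 for mt-Nd4l. mt-Co3, a core subunit of complex IV (position 8607 to 9390 of the mitochondrial chromosome), was at 11129 and 12931 CPM in MGE interneuron-like cells and 7298 and 8502 CPM in PN-like cells, a log2 difference of 0.44 ± 0.18 (SE, adjusted p = 0.0926, edgeR). The values of mt-Co3 did not overlap, but the spread between replicates was too wide for a call. With the replicate as a block, 9 of the 13 were called higher, among them mt-Co3 with an adjusted p of 0.00244 (edgeR), and 84 of the 93 nuclear genes lower, where 38.4% of all genes were called in either direction. The filter on cells uses the same mitochondrial genes. With a filter at under 5% in place of 10%, the summed mitochondrial share of MGE interneuron-like cells exceeded that of PN-like cells by 0.02 on the log2 scale, against 0.50 in the main analysis and 0.72 without a filter. In cells of 3000 to 6000 UMIs it was 0.01 lower.

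RGC-like and PN-like cells, the start and the end of the excitatory lineage, differed in nuclear genes of both directions, in a balance that changed with scaling and depth. Of the 93 nuclear genes, 17 were higher and 14 lower in RGC-like cells, where 29.6% and 35.1% of all genes were called in these directions. Among the 17 were Cox4i2 and Cox7b2, which passed the filter on low counts through the RGC-like sums alone. The median log2 fold change was -0.06, against -0.07 for all genes. With library sizes alone, in place of the trimmed mean of M-values (TMM), 29 were higher and 3 lower, where 37.9% and 27.4% of all genes were, and the medians moved to 0.17 for the nuclear genes and 0.15 for all genes. In cells of 3000 to 6000 UMIs, which left 25 and 123 RGC-like cells, 12 of 90 nuclear genes were higher and 1 lower, where 15.3% and 18.9% of all genes were, and the median was 0.29, against -0.06 for all genes. The fold changes below are after TMM and from cells of all depths, so that a gene can have a negative fold change although its CPM, computed without TMM, are about equal.

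Complex II stood on the higher side in RGC-like cells. Sdhd, a membrane anchor of the complex, was at 77.8 and 88.2 CPM in the RGC-like class and 41.4 and 47.0 CPM in PN-like cells (log2 fold change 0.68 ± 0.15 SE, adjusted p = 0.00325, edgeR). Sdha rose by 0.32 and Sdhc, the other anchor, by 0.27 on the same scale (adjusted p = 0.0106 and 0.0204), and Sdhb was at -0.10 (adjusted p = 0.494). The values of Sdhd, which was picked for the size of its change, did not overlap between the classes. Sdhaf4, an assembly factor of the same complex that acts on Sdha, went the other way, at 38.0 and 44.4 CPM against 62.9 and 74.7 CPM (-0.96 ± 0.12 SE, adjusted p = 0.000162, edgeR). It was the nuclear gene with the strongest drop in RGC-like cells in this comparison.

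The complex I genes split within each role. Among the assembly factors, Ndufaf8 and Ndufaf4 were higher in RGC-like cells, and Ndufaf3, Ndufaf7, Ndufaf5 and Ndufaf1 were lower. Ndufaf3 was at 25.6 and 29.3 CPM in RGC-like cells against 39.1 and 42.0 CPM in PN-like cells (-0.78 ± 0.11 SE, adjusted p = 0.000237, edgeR), and Ndufaf8 rose by 0.66 on the log2 scale (adjusted p = 0.00356). Of the accessory subunits, Ndufb10 changed by -0.59 and Ndufa8 by -0.55 (adjusted p = 0.00733 and 0.00853), while Ndufb11, Ndufc2, Ndufb6, Ndufab1 and Ndufa12 were called higher. In cells of 3000 to 6000 UMIs the sign turned for Ndufaf3 (0.70), Ndufb10 (0.29) and Ndufa8 (0.13). The core subunit Ndufs7 was called higher and Ndufs1 lower by 0.26 on the log2 scale (adjusted p = 0.0339), but the CPM of Ndufs1, 49.7 and 46.0 against 46.7 and 50.5, overlapped. The same held for Uqcrc2 of complex III, which changed by -0.29, and Cox5a of complex IV, which changed by -0.41, since their CPM overlapped as well, and Uqcrc2 was at 0.32 in cells of 3000 to 6000 UMIs.

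Atp5g2 was the single complex V gene called between RGC-like and PN-like cells in the main analysis. Of 17 complex V genes, 3 were higher with DESeq2 and 3 with cells thinned at random to 3000 UMIs. In cells of 3000 to 6000 UMIs, 2 were higher. Atp5g2 is 1 of 3 genes, with Atp5g1 and Atp5g3, for the same c subunit, which forms the rotating ring of the ATP synthase. Atp5g2 (chr15:102662868-102671047) reached 694 and 741 CPM in RGC-like and 687 and 732 CPM in IPC-like cells. It was at 390 and 448 CPM in PN-like cells and 221 and 242 CPM in MGE interneuron-like cells. The log2 fold change against PN-like cells was 0.55 ± 0.11 (SE, adjusted p = 0.00246, edgeR) in RGC-like and 0.61 ± 0.11 (adjusted p = 0.00208) in IPC-like cells. Between the progenitor classes the difference in Atp5g2 was within the replicate spread (-0.06 ± 0.11 SE, adjusted p = 0.693). Of the UMIs of the 3 genes together, Atp5g2 held 57.9% and 58.7% in RGC-like, 61.9% and 64.3% in IPC-like, 47.3% and 49.6% in PN-like, and 44.3% and 49.3% in MGE interneuron-like cells. Atp5g1 was lower in IPC-like than in PN-like cells (-0.33, adjusted p = 0.0158, edgeR, but 0.10 in cells of 3000 to 6000 UMIs), and Atp5g3 did not pass the test between these classes.

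The mitochondrially encoded genes were on the lower side in RGC-like cells. All 13 had a negative log2 fold change against PN-like cells, with a median of -0.42, and 4 (30.8%) were called lower, a share under the 35.1% of all genes. mt-Nd4, a proton-pumping subunit of complex I (10167 to 11544 of the mitochondrial chromosome), was at 1540 and 1910 CPM in the RGC-like class and 1992 and 2318 CPM in PN-like cells (-0.55 ± 0.17 SE, adjusted p = 0.0184, edgeR). mt-Cytb, the catalytic membrane subunit of complex III (14145 to 15288), was at 3602 and 4184 CPM against 4551 and 5000 CPM (-0.52 ± 0.15 SE, adjusted p = 0.0118, edgeR). mt-Co3 changed by -0.54 and mt-Atp6, the proton channel of complex V, by -0.49 (adjusted p = 0.027 and 0.0419). The CPM of mt-Atp6, 5016 and 6238 against 6173 and 7287, overlapped, and those of the other 3 did not. mt-Nd1 was at -0.13, mt-Nd5 at -0.07 and mt-Nd6, which is encoded on the opposite strand to the others of the 13, at -0.20, none of them called. With library sizes alone 0 of the 13 were called, and with the replicate as a block 10 were called lower, together with 23 nuclear genes higher and 22 lower, where 70.4% of all genes were called in either direction.

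Some neighbouring mitochondrial genes cannot be fully told apart by position. On the reference, mt-Atp8 and mt-Atp6 share 43 bases, mt-Nd4l and mt-Nd4 share 7, and mt-Atp6 and mt-Co3 share 1. mt-Nd4l and mt-Nd3 also differed between the libraries in another direction than their neighbours. mt-Nd3 was at 444 CPM in replicate 1 and 299 CPM in replicate 3 of PN-like cells, and mt-Nd4l at 262 and 175 CPM. Both were higher in replicate 1 in all 4 neural classes, whereas mt-Co3 was higher in replicate 3 in all 4.

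Along the lineage, the step from RGC-like to IPC-like cells involved fewer calls. There, 3 nuclear genes were higher and 6 lower in RGC-like cells, where 20.1% and 19.1% of all genes were, and 0 of the 13 mitochondrial genes were called (edgeR, 0 with an unadjusted p under 0.05). The lower genes included Cox7a2l, with 258 and 315 CPM against 351 and 403 CPM (-0.47 ± 0.15 SE, adjusted p = 0.0402, edgeR). Uqcrfs1 changed by -0.41, Ndufaf3 by -0.42, Sdhaf4 by -0.39, Ndufs1 by -0.38 and Uqcrh, a hinge protein of complex III, by -0.35. In cells of 3000 to 6000 UMIs Ndufaf3 was at 0.24, and 0 nuclear genes were called (edgeR, 3 with an unadjusted p under 0.05). The higher genes were Ndufaf4 (0.54 ± 0.10 SE, adjusted p = 0.00248) and the isoform genes Cox4i2 and Cox7b2, which passed the filter through the RGC-like sums alone. With the block, 9 were higher and 17 lower, where 46.4% of all genes were called.

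IPC-like cells differed from PN-like cells in 8 nuclear genes that were higher and 9 that were lower, where 23.5% and 26.7% of all genes were called. The median was 0.04, against -0.02 for all genes. In cells of 3000 to 6000 UMIs (26 and 107 IPC-like cells) the comparison was one-sided, with 19 of 90 nuclear genes higher and 0 lower, where 9.47% and 13.5% of all genes were, and a median of 0.50 against -0.02. Of the 9 lower genes, 4 were complex I assembly factors (Ndufaf5, Ndufaf2, Ndufaf7 and Ndufaf3), of 8 such genes tested. Ndufaf5 changed by -0.81 ± 0.12 (SE, adjusted p = 0.000643, edgeR), Sdhaf4 by -0.57, Ndufb10 by -0.48, Ndufaf2 by -0.42 and Ndufa8 by -0.41, but Ndufaf2 was at 0.18 and Ndufb10 at 0.14 in cells of 3000 to 6000 UMIs. Of the higher genes, the accessory subunit Ndufa12 changed by 0.46 ± 0.08 (SE, adjusted p = 0.00209), Cox8a by 0.44, Ndufab1, which is also the mitochondrial acyl carrier protein, by 0.43, and Sdhc by 0.25. mt-Nd4 and mt-Cytb were lower, by 0.47 and 0.44 on the log2 scale (adjusted p = 0.0448 and 0.0331). With the block, 18 nuclear genes were higher, 14 lower and 9 mitochondrial genes lower, where 56.6% of all genes were called. With library sizes alone, 23 nuclear genes were higher and 2 lower, where 30.5% and 21.9% of all genes were. The comparisons among the neural classes share the sums of RGC-like, IPC-like and PN-like cells, so that they are not independent of each other.

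**Figure D3:**
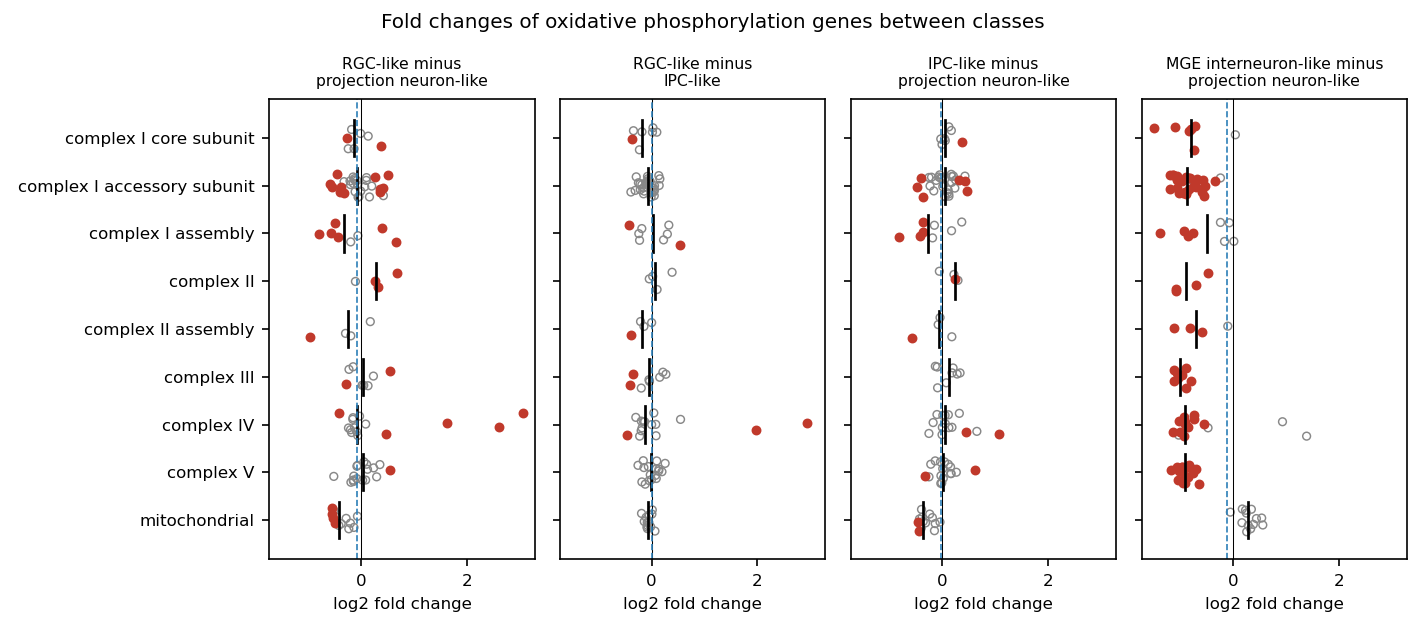
Log2 fold changes of the tested OXPHOS genes in the 4 comparisons between neural classes, by role, with 1 point per gene, filled where called. Black bars are medians of a role and the dashed line is the median of all genes. In MGE interneuron-like against PN-like cells the nuclear genes centre on -0.86, and in RGC-like against PN-like cells on -0.06.

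The pathways around OXPHOS were described by lists for RGC-like against PN-like cells, where 29.6% of all genes were called higher and 35.1% lower. Of the TCA cycle, 3 of 16 were higher and 4 lower. Suclg2, the GTP-forming subunit of succinyl-CoA ligase, was at 54.5 and 57.4 CPM in RGC-like cells against 6.12 and 7.64 CPM in PN-like cells (2.77 ± 0.14 SE, edgeR), while Mdh2 changed by -0.51. Of the partners of the complexes, 5 of 12 were higher and 2 lower. Slc25a5, which exchanges ADP for ATP across the inner membrane, rose by 1.36 and Etfa, which feeds electrons from fatty acid oxidation, by 1.37. Atpif1, the inhibitor of ATP synthase in reverse, was at 382 and 367 CPM against 762 and 705 CPM and changed by -1.20.

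Of the genes for mitochondrial biogenesis and expression of the mitochondrial genome, 11 of 23 were higher in RGC-like cells and 3 lower. The coactivator gene Ppargc1a was at 38.2 and 27.5 CPM in the RGC-like class and 8.19 and 4.76 CPM in PN-like cells (2.08 ± 0.32 SE, edgeR), and Ppargc1b changed by 2.07 and Mtif3 by -1.67. Of glycolysis, 11 of 19 were higher and 5 lower, with Hk2 at 2.37, Pfkp at -3.11 and Eno2, the neuronal enolase, at -2.35. Of mitochondrial fusion, fission and turnover, 0 of 11 were higher and 7 lower, among them Pink1 (-0.88) and Bnip3 (-0.85), which act in the removal of mitochondria. The mitochondrial ribosome had 25 of 78 higher and 2 lower, the cytosolic ribosome 38 of 83 higher and 0 lower, and the antioxidant genes 2 of 9 higher and 1 lower. The assembly factors outside the symbol rule had 7 of 33 higher and 12 lower, with Nubpl at 1.35, Ecsit at -1.23 and Lyrm7 at -1.22. In cells of 3000 to 6000 UMIs, 15.3% of all genes were higher and 18.9% lower, and these counts moved. Fusion, fission and turnover had 1 of 11 lower there, against 4 of 11 with DESeq2. The outside assembly factors had 1 of 24 higher and 0 lower, and the TCA cycle 2 of 16 and 0. Biogenesis had 4 of 17 higher and 1 lower, glycolysis 9 of 15 and 1, and the cytosolic ribosome 53 of 83 and 0. Of 12 dissociation stress genes, 9 were higher and 3 lower, with Fos at 3.24. Of 8 nuclear long noncoding RNAs, 1 was higher and 7 lower, among them Meg3 at 22.5 and 12.5 CPM in RGC-like against 297 and 258 CPM in PN-like cells. The part of both lists in the OXPHOS values was not tested.

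Several nuclear subunits have a second gene that is used in particular tissues. Of these, Cox8c had 0 UMIs in the kept cells, Cox8b 1 and Cox6a2 6, so that they were not detectable at this depth in any amount that could be compared. Ndufa4l2, Cox4i2, Cox6b2, Cox7b2 and Cox7a1 were detected, each in a different set of classes. Shares of a pair are given below as the gene's share of the UMIs of both genes, where a UMI stands for a molecule counted at its 3′ end, with 95% Wilson intervals that cover counting error only.

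Ndufa4l2 (chr10:127509274-127517154), known as a target of the hypoxia response and related to the complex IV subunit gene Ndufa4, was high in pericyte-like cells. It was at 823 and 728 CPM in pericyte-like cells (38 and 47 cells), 17.2 and 29.5 CPM in meningeal-like cells, and at most 7.25 CPM in either replicate of the other classes named here. In RGC-like cells it was at 0.631 and 0.247 CPM, from 6 and 5 UMIs. Against RGC-like cells, pericyte-like cells were higher by 10.20 ± 0.41 on the log2 scale (SE, adjusted p = 1.12e-08, edgeR) and meningeal-like cells by 5.25 ± 0.44 (adjusted p = 2.93e-06). Ndufa4 went the other way, at 255 and 316 CPM in pericyte-like cells against 565 and 517 CPM in RGC-like cells (-0.85 ± 0.22 SE, adjusted p = 0.00788, edgeR). In pericyte-like cells Ndufa4l2 held 76.4% (interval 72.6 to 79.8) and 69.8% (66.2 to 73.1) of the pair's UMIs, in meningeal-like cells 2.38% and 4.78%, and in PN-like cells 0.07% and 0.13%.

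Cox4i2 (chr2:152753916-152765039), the isoform of Cox4i1 known from lung and from oxygen sensing, was also high in pericyte-like cells. It was at 214 and 277 CPM there and 4.0 and 2.96 CPM in RGC-like cells, from 106 and 181 UMIs against 38 and 60. In this fit Cox4i2 passed the filter on low counts, at 8.09 CPM, through the pericyte-like sums alone, so that its difference is given as levels with no test. Its share of the pair was 12.1% (10.1 to 14.4) and 14.8% (12.9 to 16.9) in pericyte-like cells, so that Cox4i1 held most of the UMIs in these cells too. Among neural classes, PN-like cells had 0.296 and 0.442 CPM of Cox4i2 and IPC-like cells 0.657 and 0.77 CPM, both under the RGC-like levels. Only the RGC-like sums reached the filter there, which lay at 1.01 CPM, and no test is given. Free RNA from lysed cells can give UMIs in cells that do not express a gene, and its part in these low levels was not tested.

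Cox6b2 (chr7:4751792-4753094), the testis-known isoform of Cox6b1, was found in hem and choroid plexus-like cells at 42.4 and 127 CPM, in meningeal-like cells at 67.3 and 45.9 CPM, and in Cajal-Retzius-like cells at 5.68 and 39.5 CPM. RGC-like cells had 5.47 and 4.94 CPM, IPC-like cells 3.61 and 3.08 CPM and PN-like cells 1.24 and 1.46 CPM. The log2 fold change was 3.40 ± 0.46 (SE, adjusted p = 3.81e-05, edgeR) for meningeal-like against RGC-like cells, 3.54 ± 0.50 (adjusted p = 0.000235) for Cajal-Retzius-like against PN-like cells, and 1.62 ± 0.22 (adjusted p = 0.000246) for RGC-like against PN-like cells. The replicates of Cajal-Retzius-like cells were far apart, and those of hem and choroid plexus-like cells as well, which had 18 and 158 cells. In red blood cell-like cells Cox6b2 held 31.4% (21.8 to 43.0) and 47.4% (38.4 to 56.5) of the pair's UMIs, from 22 of 70 and 54 of 114.

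Cox7b2 (chr5:71442823-71548205), an isoform of Cox7b, was at 1.79 and 2.17 CPM in RGC-like cells, from 17 and 44 UMIs, and at 0.0591 and 0.13 CPM in PN-like cells, from 2 and 5 UMIs. IPC-like cells had 2 and 0 UMIs. Cox7b2 also passed the filter through the RGC-like sums alone, and no test is given. Cox7a1 (chr7:30184171-30186030), the muscle isoform of Cox7a2, had 7 UMIs in replicate 1 and 0 in replicate 3 of pericyte-like cells. In microglia-like cells (22 and 34 cells), through which alone it passed the filter, it was at 10.8 and 11.4 CPM.

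**Figure D4:**
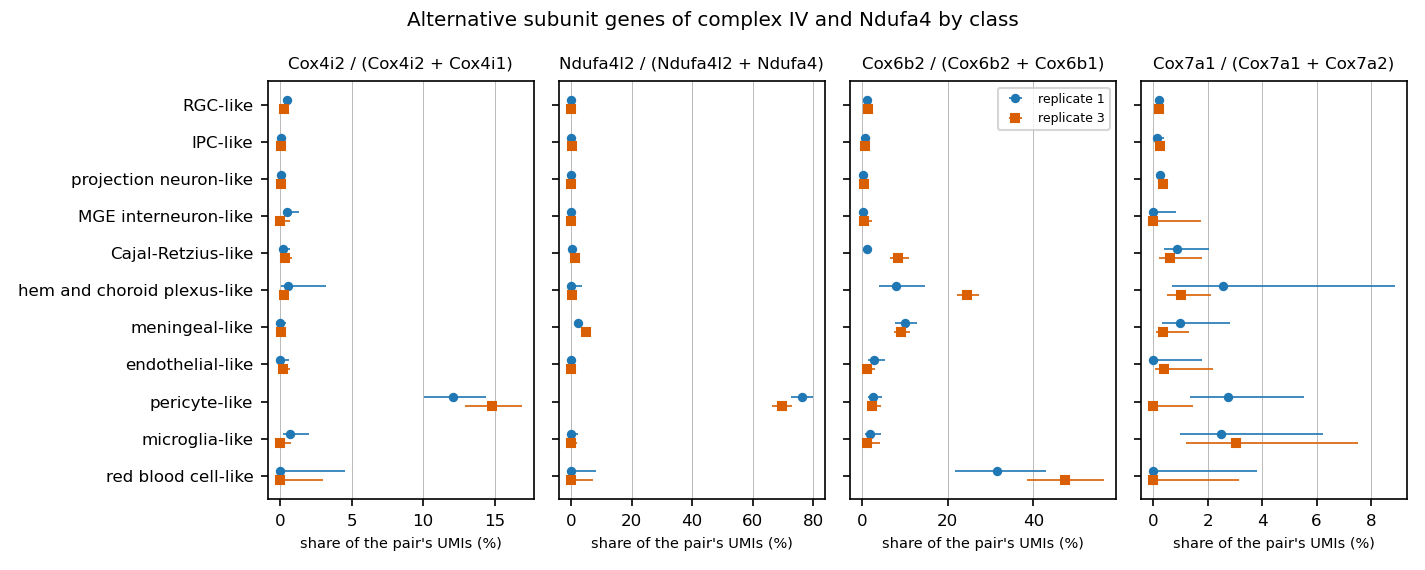
Share (percent) of a pair's UMIs held by the less widely used isoform gene, by class, with 1 point per replicate and 95% Wilson intervals. Ndufa4l2 held 76.4% and 69.8% in pericyte-like cells and under 5% in meningeal-like cells.

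Vascular and meningeal classes were compared with RGC-like cells in a fit of 9 classes, in which 94 nuclear genes were tested. In pericyte-like cells 28 nuclear genes were higher and 2 lower, where 18.3% and 17% of all 13108 genes tested were called, with a median of 0.40 against -0.12 for all genes. The 28 include Cox4i2 and Cox7a1, which passed the filter through 1 class alone. Besides the isoform genes, Ndufb2 changed by 1.07, Ndufs8 by 1.06, Uqcrc1 by 1.04, Ndufb8 by 0.96, Cox4i1 by 0.89, Cox8a by 0.87 and Atp5b by 0.52. The genes that fell were Ndufa4 and Ndufaf5, the latter at 2.02 and 6.13 CPM against 19.4 and 17.9 CPM (-1.96 ± 0.41 SE, adjusted p = 0.00183, edgeR). The pericyte-like cells had a median of 11744 and 12829 UMIs, close to the 12977 and 12040.5 of RGC-like cells.

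In meningeal-like cells, fibroblasts of the brain's covering, 19 nuclear genes were higher and 5 lower, where 22.8% and 20.7% of all genes were called, with a median of 0.35 against -0.03. Ndufa13 changed by 1.0, Ndufb2 by 0.99, Cox6c by 0.80, Uqcrb by 0.77 and Cox4i1 by 0.63, and among the lower genes Sdhaf3 changed by -1.02, Ndufaf4 by -0.70 and Cox5a by -0.53. In endothelial-like cells 7 were higher and 8 lower, where 19.2% and 20.3% of all genes were, with a median of 0.01 against -0.13. Ndufa8, an accessory subunit of complex I, was at 220 and 260 CPM in endothelial-like cells against 101 and 121 CPM in RGC-like cells (1.18 ± 0.18 SE, adjusted p = 0.000102, edgeR). Ndufb2 changed by 0.76, Uqcrb by 0.73, Cox7a2l by 0.67 and Ndufa9 by 0.60, and Sdhaf3 by -0.92, Ndufaf2 by -0.88, Ndufaf4 by -0.72, Ndufc2 by -0.71 and Atp5o by -0.62. The assembly factors Sdhaf3 and Ndufaf4 were thus lower than in RGC-like cells in both classes.

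The mitochondrially encoded genes were higher in all 3 of these classes than in RGC-like cells where they were called. Of the 13, 8 were higher in meningeal-like, 6 in endothelial-like and 5 in pericyte-like cells, and 0 were lower, where 22.8%, 19.2% and 18.3% of all genes were called higher. The medians were 0.66, 0.60 and 0.53. mt-Co1, the catalytic subunit of complex IV, was at 5425 and 5356 CPM in endothelial-like cells, 3930 and 4239 CPM in meningeal-like cells, 3884 and 4194 CPM in pericyte-like cells, and 2522 and 2979 CPM in RGC-like cells. The log2 fold changes of mt-Co1 were 1.04 ± 0.17, 0.63 ± 0.17 and 0.62 ± 0.17 (SE), with adjusted p of 0.000182, 0.00667 and 0.00928 (edgeR). mt-Nd6, mt-Co2 and mt-Co3 were called in all 3 classes as well. The lists for dissociation stress and nuclear long noncoding RNA moved in the same comparisons. Of 12 dissociation stress genes, 5 were higher in meningeal-like, 7 in endothelial-like and 8 in pericyte-like cells, with medians of 0.74, 2.22 and 2.27, and of 8 nuclear long noncoding RNAs 6, 1 and 4 were higher. Their part in the OXPHOS values was not tested. These comparisons share the RGC-like sums. With the block, where 46.8%, 41.6% and 37.4% of all genes were called in meningeal-like, endothelial-like and pericyte-like cells, 39, 10 and 42 nuclear genes and 12, 9 and 11 mitochondrial genes were higher, and 5, 8 and 3 nuclear genes lower.

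**Figure D5:**
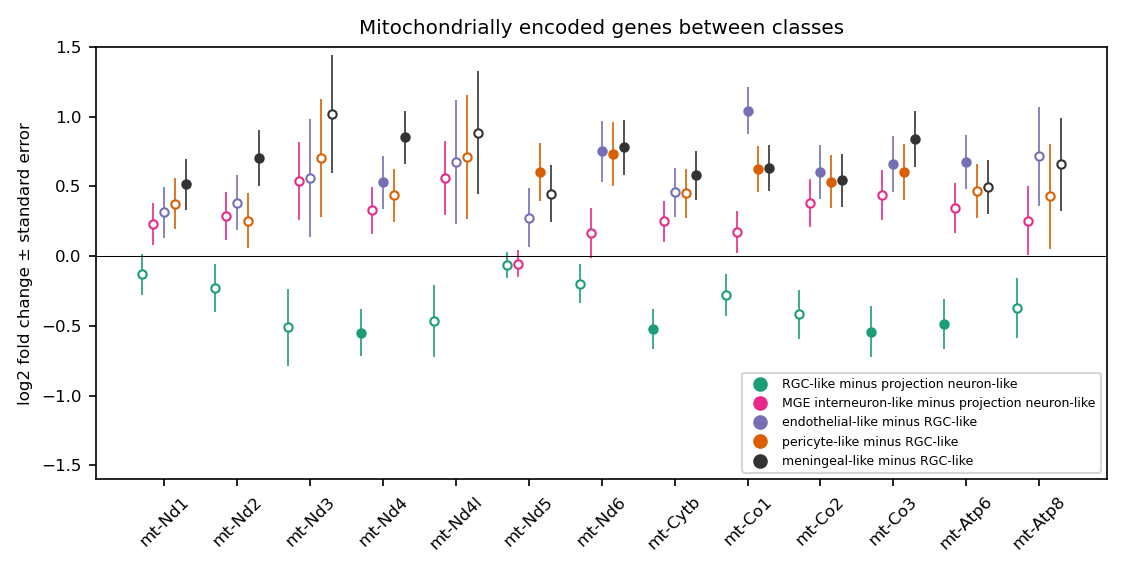
Log2 fold changes of the 13 mitochondrially encoded OXPHOS genes in 5 comparisons between classes, with bars of 1 standard error, filled where called and open where not. mt-Co1 lay at 1.04 in endothelial-like against RGC-like cells, and all 13 genes lay below 0 in RGC-like against PN-like cells.

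Cajal-Retzius-like cells, early neurons of the cortical surface (109 and 94 cells), had few calls against PN-like cells, with 2 nuclear genes higher and 5 lower, where 9.95% and 7.44% of all genes were called. Few calls between sums of this size do not show that the classes were alike. The higher genes were Cox6b2 and Ndufa4l2 (2.44 ± 0.61 SE, adjusted p = 0.017, edgeR), and both had levels several times higher in replicate 3 than in replicate 1. Ndufa4l2 rested on 2 and 9 UMIs in Cajal-Retzius-like cells. Both of its levels there lay under the filter at 8.09 CPM, which it passed through pericyte-like and meningeal-like cells. The lower genes were Cox5a (-0.62), Uqcrc2 (-0.57), Cox7a2l (-0.57), Uqcrh (-0.55) and Atp5c1 (-0.55). No mitochondrial gene was called (edgeR). With the block, 4 were higher and 6 lower, where 21.1% of all genes were called. Ppargc1a was higher by 3.14 in Cajal-Retzius-like cells and by 1.45 in MGE interneuron-like cells than in PN-like cells, on the log2 scale and at all depths. At 3000 to 6000 UMIs, 0 of the 17 biogenesis genes tested were called higher in MGE interneuron-like than in PN-like cells. The largest log2 change among them was 0.98.

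Within RGC-like cells, the phases of the cell cycle were compared on 185 and 375 cells in G1, 186 and 512 in S and 296 and 635 in G2M. Between S and G1, 1 nuclear gene was higher and 1 lower, where 6.31% and 2.04% of all 12617 genes tested were called. Ndufaf2, a complex I assembly factor, was at 129 and 110 CPM in S against 78.3 and 81.3 CPM in G1 (0.62 ± 0.11 SE, adjusted p = 0.0173, edgeR). Ndufa6, an accessory subunit, was at 136 and 127 CPM in S against 199 and 179 CPM in G1 (-0.47 ± 0.11 SE, adjusted p = 0.0366, edgeR). The values of neither gene overlapped, but both were picked because they were called. Between G2M and G1, 0 nuclear and 0 mitochondrial genes were called (edgeR), 6 and 0 had an unadjusted p under 0.05, and 6.09% and 2.14% of all genes were called higher and lower. With the block, where 23% of all genes were called in S and 24.1% in G2M, 6 nuclear genes were higher and 3 lower in S, and 8 were higher and 6 lower in G2M with 5 mitochondrial genes lower.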

How the data were processed

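The data were counts of UMIs in each gene and barcode, made by the authors with Cell Ranger 7.0.0 on mm10 per the submitters' processing notes and used as deposited, 1 table per sample. The annotation, intron setting and cell calling are not given in the sources used here. The genes, lists and comparisons were chosen with earlier results of these data known. Barcodes of 1500 to 60000 UMIs with under 10% mitochondrial UMIs were kept, which removed 307 and 829 barcodes for the mitochondrial share, and predicted doublets were removed (238 and 448, by simulated doublets at 0.8% per 1000 barcodes). Leiden clusters (resolution 1.0, 2000 variable genes, 30 components, without the OXPHOS genes, the pathway lists, ribosomal and mitochondrial genes) were named from 130 marker genes. A name needed at least 3 markers, and a rule that left shallow clusters unnamed was set after the clusters were seen. Red blood cell-like cells were left out of the tests.

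UMIs were summed per class and replicate and compared in edgeR by quasi-likelihood (TMM, filterByExpr, prior count 2, Benjamini-Hochberg over all genes tested, threshold 0.05), with 4 neural classes in 1 fit, 9 classes in a second and the phases of RGC-like cells, scored on cells thinned to 3000 UMIs, in the third. For the SE, the size of the fold change was divided by the root of the F statistic. CPM were computed from the sums without TMM. Named were all mitochondrial genes, isoform and core subunit genes, the 5 nuclear genes with the largest fold changes called in each direction, and 3 genes per list, apart from a few that are not reported here. All sums with the same replicate number derive from a single library and are paired by it. The correlation of paired deviations across 15231 genes was 0.0559 to 0.347, and genes are not independent replicates. The fit without a block was the main one, and the block, DESeq2, other filters and scalings and left-out sums were alternatives. A fit on cells of 3000 to 6000 UMIs was added after seeing the data. The fits were tested on simulated counts. Intervals cover counting error only. Gene positions and promoters were taken from RefSeq (GRCm38.p6), where 111 of 111 genes matched by position. Software was Python 3.11.15, scanpy 1.11.5, R 4.3.3, edgeR 4.0.16 and DESeq2 1.42.0.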

Additional observations from a re-analysis of the deposited data

How the results depend on the processing

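With 2 replicates the tests recover few small changes, and sums of 1 library are not independent. The drop of nuclear genes in MGE interneuron-like against PN-like cells kept its direction under all alternatives run. When 1 sum was left out, 62 to 75 genes were lower, but a class left with 1 sum is then assumed to vary like the other classes, as in every such value here. The other counts moved, and the cause was not tested unless fewer cells or samples are named. Among the OXPHOS genes named by rule, 2867 values under alternatives were on the same side of the threshold as the main one. A further 195 lost the call, 120 gained it and 8 changed sign. Genes of the pathway lists were not part of this count. A change of sign was counted only for genes called in the main analysis.

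In RGC-like against PN-like cells (17 nuclear genes higher, 14 lower and 4 mitochondrial genes lower in the main analysis), leaving out 1 sum gave 10 to 14 higher, 8 to 10 lower and 0 to 5 mitochondrial genes lower. Library sizes only gave 29 higher, 3 lower and 0 mitochondrial genes lower, DESeq2 (21 higher), kept doublets and thinning to 3000 UMIs each gave 6 lower, the replicate block 22 lower and 10 mitochondrial genes lower, no filter on low counts 9 mitochondrial genes lower, the 5% mitochondrial filter 2, kept doublets 0, and cells of 3000 to 6000 UMIs, which are fewer, 12 nuclear genes higher, 1 nuclear and 0 mitochondrial genes lower.

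In RGC-like against IPC-like cells (3 higher, 6 lower), leaving out 1 sum gave 1 to 3 higher and 0 to 4 lower. DESeq2 gave 5 and 3, kept doublets 5 and 1, library sizes only 7 and 3, the replicate block 9 and 17, thinning 1 and 1, and cells of 3000 to 6000 UMIs 0 and 0, while resolution 2.0 and the 5% filter each gave 6 higher.

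In IPC-like against PN-like cells (8 higher, 9 lower, 2 mitochondrial genes lower), leaving out 1 sum gave 3 to 5 higher, 3 to 5 lower and 0 to 1 mitochondrial genes lower. DESeq2 gave 13, 5 and 1, library sizes only 23, 2 and 0, the replicate block 18, 14 and 9, and cells of 3000 to 6000 UMIs 19, 0 and 0. Thinning gave 4 lower, the 5% filter 4 higher and 0 mitochondrial genes lower, kept doublets and no mitochondrial filter 0 mitochondrial genes lower, and no filter on low counts 8.

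In MGE interneuron-like against PN-like cells, 11 nuclear genes were lower in cells of 3000 to 6000 UMIs, and no filter on low counts gave 1 nuclear gene higher. Mitochondrial genes were higher in 3 cases with DESeq2, 4 with library sizes only, 2 with no filter on low counts, 3 with no mitochondrial filter and 9 with the replicate block, and 1 was lower with the 5% filter.

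In the other comparisons, library sizes only gave 7 nuclear genes higher and 0 lower in Cajal-Retzius-like cells, 3 higher in endothelial-like cells, and 4 nuclear genes lower and 2 mitochondrial genes higher in pericyte-like cells. The replicate block gave 4 nuclear genes higher in Cajal-Retzius-like cells, 39 in meningeal-like cells and 11 mitochondrial genes higher in pericyte-like cells, 6 nuclear genes higher, 3 lower and 1 mitochondrial gene higher in S, and 8 higher, 6 lower and 5 mitochondrial genes lower in G2M.

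The log2 ratio of summed nuclear shares in RGC-like against PN-like cells was 0.23, and moved to 0.55 in cells of 3000 to 6000 UMIs, 0.31 with thinning and 0.19 with the 5% filter. In RGC-like against IPC-like cells it was 0.02 and moved to -0.20, to 0.0578 at resolution 2.0 and to 0.0648 with the 5% filter, in IPC-like against PN-like cells from 0.21 to 0.75, 0.28 with thinning and 0.13, and in MGE interneuron-like against PN-like cells from -0.70 to -0.57, -0.79 with thinning, -0.52 with the 5% filter and -0.56 with kept doublets. The mitochondrial ratio moved from -0.21 to -0.27 with thinning and -0.11 with the 5% filter in RGC-like against PN-like cells, and from -0.21 to -0.40, -0.27 and -0.12 in IPC-like against PN-like cells. In MGE interneuron-like against PN-like cells it moved from 0.50 to -0.0148 at 3000 to 6000 UMIs, 0.41 at 3000 UMIs or more, 0.42 with kept doublets, 0.72 with no mitochondrial filter, 0.49 at resolution 2.0, 0.48 with thinning and 0.0214 with the 5% filter. Between RGC-like and IPC-like cells it was -0.01, and 0.21, 0.0178, 0.0163, -7.49e-05, 0.00369, -0.00186 and 0.00367 under the same settings.

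Among the named OXPHOS genes that were called in the main analysis, the changes of sign were all in cells of 3000 to 6000 UMIs. There Ndufa8 was at 0.13, Ndufaf3 at 0.70, Ndufb10 at 0.29 and Uqcrc2 at 0.32 in RGC-like against PN-like cells, Ndufaf3 at 0.24 in RGC-like against IPC-like cells, and Atp5g1 at 0.10, Ndufaf2 at 0.18 and Ndufb10 at 0.14 in IPC-like against PN-like cells.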
